A study of Mus musculus with 6 samples.

Results

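The libraries labelled D7 are 2 of the 6 mRNA-seq libraries of mouse embryonic stem cells (ESCs) measured in a study of *Dppa3*, a maternal gene of the oocyte and early embryo. They are Con-D7, the third library of control (Con) ESCs, and OE-D7, the third library of ESCs overexpressing *Dppa3* (OE), and they were taken by this label in the sample records. They were compared with the other 4 libraries, Con-1, Con-2, OE-1 and OE-2, which a supplementary table of the study heads D0. Neither the records nor the paper says what D7 stands for, and no treatment, passage or culture time is given for it. Con ESCs, labelled wild type, carried an empty vector, and OE ESCs, labelled *Dppa3* over expression, carried *Dppa3* under the CAG promoter. The methods describe stable OE lines from colonies picked under puromycin and also transient transfection, and do not say which gave these libraries. Cells were grown in serum with LIF (the cytokine that holds ESCs undifferentiated). The records name the cells mESC, and the ESC line of these libraries is not stated. Each of the 6 records carries a different 129 strain label, running in sample order from 129S2/SvPas to 129S7/SvPas, which may be a spreadsheet fill. There was 1 D7 library per genotype, D7 and replicate number 3 are the same libraries, and what the label stands for cannot be told apart from a batch or a day of handling. Whether each library had its own culture is not stated, and a p-value below therefore reflects only how far these samples spread, part or all of which may be technical.

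Naive ESCs are held undifferentiated by a network of transcription factors around *Pou5f1*, *Sox2* and *Nanog*, which LIF supports through STAT3. When the network is let go, cells pass through an epiblast-like state into germ layers, or into extraembryonic lineages such as trophectoderm, an epithelium rich in keratins. Cells that spread and contract also switch on genes driven by SRF, a factor that responds to actin, and by YAP with its DNA-binding partner TEAD. A small share of cells in ESC cultures passes through a state in which genes of the 2-cell embryo, such as the *Zscan4* cluster, are active.

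The data are estimated read counts and FPKM (fragments per kilobase, scaled to sequencing depth) for each gene in each library. FPKM allows comparison of levels between genes of different length. Estimated counts summed to between 17408954 and 18176939 per library, so depth was nearly even. The marker genes of mESCs were expressed in all 6 libraries, with a summed level over 8 genes of 2010.02 to 2445.47 FPKM in the 4 other libraries, 1488.62 in Con-D7 and 1287.02 in OE-D7. The D7 libraries were therefore ESC-like by these markers, at a lower summed level than each of the others.

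In the D7 libraries genes of simple epithelium and trophectoderm (*Krt8*, *Krt18*, *Krt7*, *Hand1*), of contractile actin (*Acta2*, *Tagln*), of collagen matrix (*Col1a1*) and of fetal growth (*Igf2*, *Dlk1*) were higher in both genotypes, many of them more than 8-fold. Genes of naive pluripotency (*Esrrb*, *Klf4*, *Gbx2*) were lower in both. So were some genes of LIF-STAT3 signalling (*Socs3*, *Bcl3*) and of FGF feedback (*Spry4*, *Etv4*), while other members of these 2 lists rose. Of 13809 genes tested, edgeR's quasi-likelihood test with genotype as a term called 935 higher (6.77% of those tested) and 422 lower (3.06%) at an adjusted p under 0.05. In all 935 and all 422 the D7 library lay on the same side of both other libraries of its genotype in Con and in OE. The log2 fold change is the one fitted over the 6 libraries, and the change within a genotype is the D7 library's log2 CPM (counts scaled to library size) minus the mean of the other 2 libraries of that genotype. Without 1 library the calls numbered 1574 higher and 886 lower (without Con-2), 347 and 67 (without OE-1), 294 and 58 (without OE-2), 29 and 0 (without Con-D7) and 0 and 0 (without OE-D7). Replicate numbers were shared between Con and OE, and with the number as a block 3531 genes were higher and 3256 lower. The D7 libraries share 1 number, so this fit compares that number with the mean of the other 2. Differences between those 2 numbers are not part of its error, which holds only the mismatch of Con and OE within a number. Its p-values and counts, here and below, therefore do not measure how D7 would vary between cultures.

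Change within each genotype was then computed apart, with no library shared between Con and OE. In 3806 genes (27.6% of those tested) the D7 library lay above both others in Con and in OE, and in 3684 genes (26.7%) it lay below both. At least 2-fold higher in both genotypes were 981 genes (7.1%), and at least 2-fold lower in both were 287 (2.08%). The 981 genes had a median change of 1.69 in Con and 2.08 in OE (log2), and the 287 had medians of -1.32 and -1.53, against -0.00 and -0.02 over all genes tested. The change was the larger one in OE in 779 of the 981 and in 201 of the 287. Across the 13809 genes the changes in Con and OE correlated at Pearson's r = 0.88 and Spearman's rho = 0.84, a description only, since genes are not independent replicates. Deviations from the genotype mean correlated between Con and OE at 0.88 for replicate 1, 0.76 for replicate 2 and 0.89 for D7, across 12565 genes. That mean includes the D7 library, so a D7 change shared by Con and OE also enters the deviations of replicates 1 and 2. These values therefore cannot show whether agreement of this size is particular to D7. Tested within Con alone, with the spread taken from the other groups, edgeR called 3 genes higher (0.0217% of those tested) and 0 lower, and within OE alone 29 higher (0.21%) and 0 lower. Before adjustment, at p under 0.05, these were 894 and 446 genes in Con and 1412 and 777 in OE. The 3 genes called within Con were *Csf1*, *Tagln* and *Thbs1*, and all are also among the 29 called within OE. *Csf1* and, narrowly, *Thbs1* reached the mean of 0.5 FPKM needed for testing only through D7. Their calls are therefore no more than a description.

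**Figure D1:**
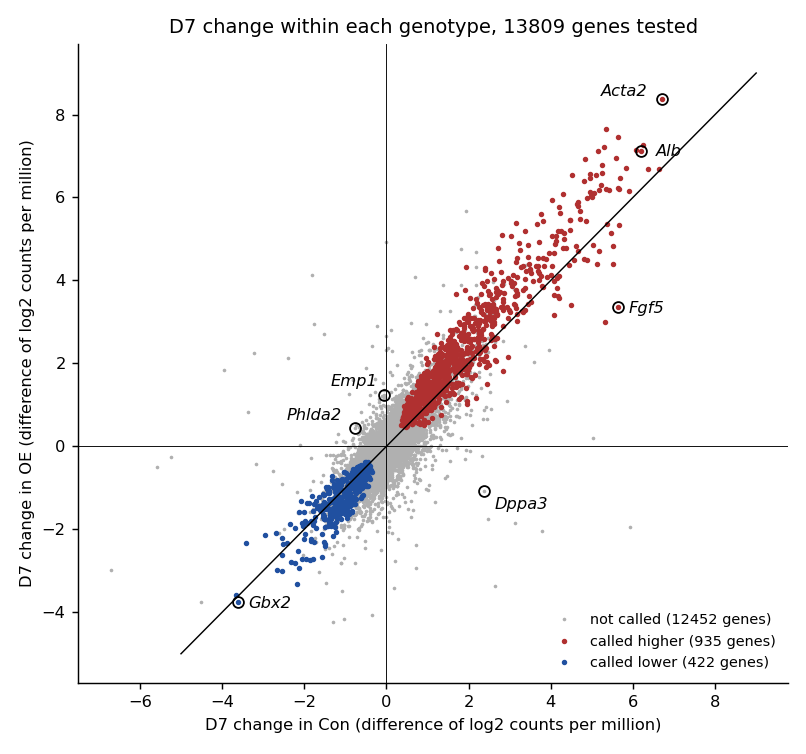
Change of the D7 library within Con (horizontal axis) and within OE (vertical axis), each as a difference of log2 CPM, for 13809 genes, with the line of equal change. The 935 genes called higher and the 422 called lower lie in the quadrants of equal sign, the higher ones mostly above the line, and *Dppa3* lies at 2.38 in Con and -1.09 in OE.

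Libraries 1 and 2 also differed, and part of that difference ran the same way as the D7 change. Of the 981 genes at least 2-fold higher in both genotypes, replicate 2 lay above replicate 1 in Con and in OE in 667 and below it in both in 115. Over all genes tested these numbers were 6141 and 5670. Of the 287 genes lower in both, replicate 2 lay below replicate 1 in both in 163 and above it in 76. *Krt18*, *Hand1* and *Fos* are examples in which the value of replicate 2 lies between those of replicate 1 and D7.

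Genes were described in 40 lists, and counts under the block are calls with the replicate number as a term, given where they are more than 1.5 times the count without it. The counts include genes that reached the level for testing, a mean of 0.5 FPKM over the 6 libraries, only through D7. Among them are *Cdx2*, *Gata3*, *Tmprss2*, *Acta1*, *Ankrd1*, *Postn* and, narrowly, *Thbs1*. The calls of such genes are no more than a description. Where edgeR called 0 of a list in a direction, at most 5 of its genes passed in that direction at an unadjusted p under 0.05, at most 2 by DESeq2 and at most 1 by limma. Simple epithelium and trophectoderm genes had the highest median of the fitted log2 fold change of these lists, closely followed by the fibroblast list, whose median within OE was higher (2.73 against 2.53). Of 21 listed genes 19 were expressed highly enough to be tested, 11 of these were higher in D7 and 0 lower, with a median log2 fold change of 2.31 against -0.03 over all genes. *Krt18*, a keratin of single-layered epithelia, was at 9.63, 20.62 and 318.42 FPKM in Con-1, Con-2 and Con-D7 and at 9.69, 17.81 and 579.62 FPKM in OE-1, OE-2 and OE-D7 (log2 fold change 4.93 ± 0.40, adjusted p = 0.00476 from edgeR). Its partner *Krt8*, whose gene lies next to it on chromosome 15, was at 11.98, 17.03 and 250.06 FPKM in Con and at 14.11, 14.68 and 421.47 FPKM in OE (4.50 ± 0.21, adjusted p = 0.00205). The lowest D7 value of these keratins was more than 10-fold above the highest value of any other library. *Krt7*, another keratin of this kind, rose from at most 1.5 FPKM in the other libraries to 39.13 in Con-D7 and 74.79 in OE-D7.

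*Hand1*, a transcription factor of trophoblast giant cells and early mesoderm, was at 1.02, 4.42 and 71.59 FPKM in Con and at 1.35, 3.83 and 150.2 FPKM in OE (log2 fold change 5.33, adjusted p = 0.0107 from edgeR). *Cdx2*, which specifies trophectoderm, was low in every library, at 0.05 to 0.15 FPKM in the 4 others, 1.49 in Con-D7 and 1.20 in OE-D7, and *Gata3*, which acts beside it, rose from at most 0.46 FPKM to 3.79 and 6.30. The placental genes *Esx1* and *Plac1* and the epithelial protease gene *Tmprss2* rose too, the last from at most 0.21 FPKM to 10.13 and 21.25. *Dsp*, of the desmosome, and *Cldn6*, of tight junctions, rose by 2.31 and 1.80 (log2). *Elf5*, a defining trophoblast factor, did not reach the level for testing and stood at 0.38 FPKM in Con-D7 and 0.66 in OE-D7 against at most 0.13. Over the 5 trophectoderm markers *Cdx2*, *Gata3*, *Elf5*, *Krt7* and *Hand1*, the summed level was 2.47 to 6.26 FPKM in the 4 others, 116.38 in Con-D7 and 233.15 in OE-D7, of which *Hand1* and *Krt7* made up most. In these bulk libraries more cells of a type and more RNA per cell cannot be told apart. Of the 11 calls, 10 to 12 were made without any 1 of the 4 other libraries, 2 without Con-D7 and 0 without OE-D7.

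**Figure D2:**
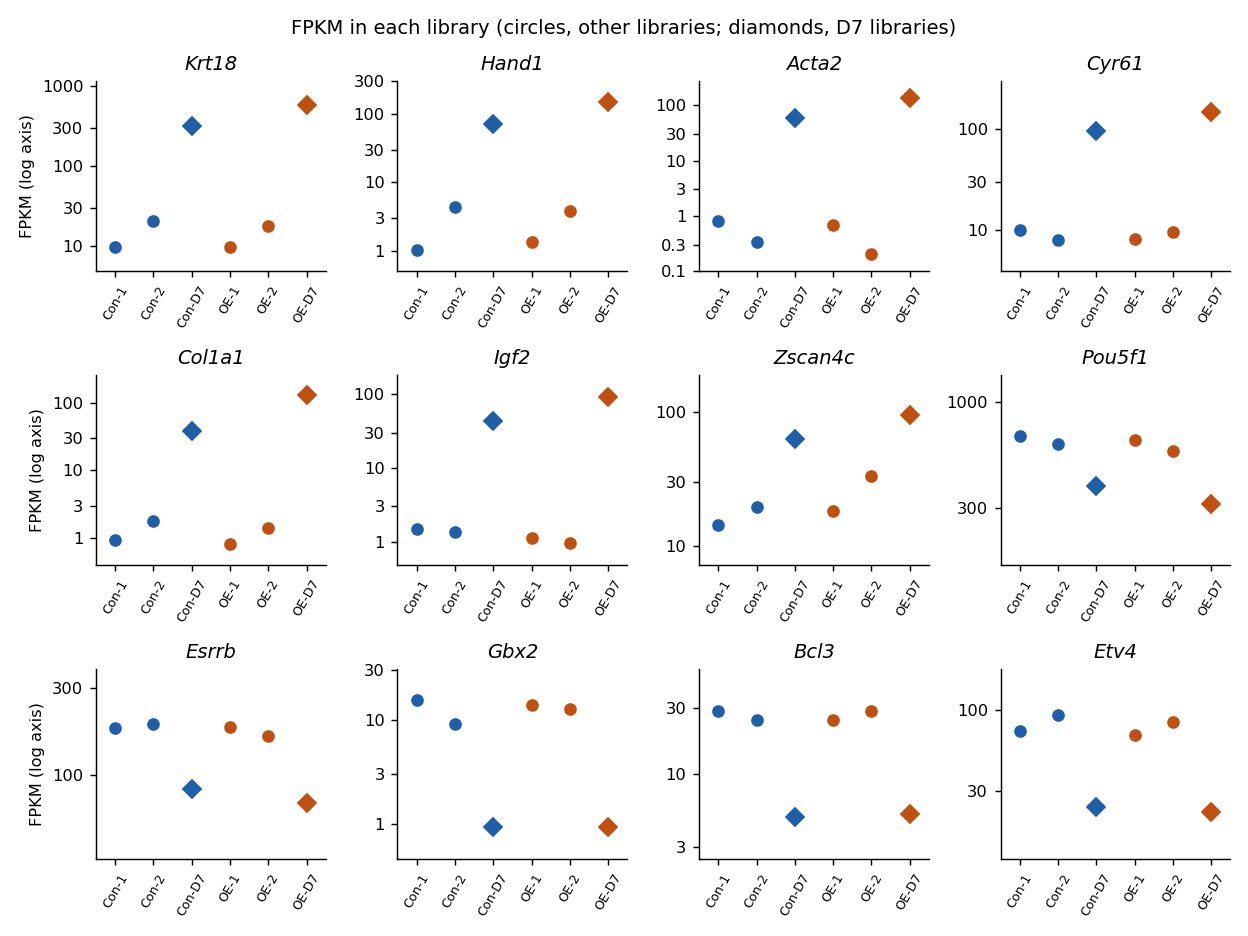
FPKM (vertical axes, log scale) of 12 genes in each library (Con in blue, OE in orange, D7 libraries as diamonds). In 7 panels, from *Krt18* to *Zscan4c*, both diamonds lie above all circles, and in the 5 panels from *Pou5f1* to *Etv4* both lie below.

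Genes of the actin cytoskeleton and targets of SRF rose as well. Of 26 tested of 29 listed, 15 were higher and 0 lower (median 1.41), and in 24 of the 26 the D7 library lay above both others in both genotypes. *Acta2*, smooth muscle actin, was at 0.81, 0.34 and 58.2 FPKM in Con and at 0.67, 0.2 and 137.65 FPKM in OE (log2 fold change 7.59 ± 0.52, adjusted p = 0.00385 from edgeR). *Acta1*, skeletal muscle actin, rose from at most 0.35 FPKM to 20.24 and 27.95, and *Tagln*, an actin-bundling protein of smooth muscle, from at most 1.59 FPKM to 63.49 and 99.78. More widely expressed genes of this group moved by less, among them *Tpm1* (tropomyosin, 2.96), *Cald1* (caldesmon, 2.78), *Cnn2* (calponin, 2.29), *Zyx* (zyxin, 2.25) and *Myh9* (non-muscle myosin, 1.1). Without any 1 of the 4 other libraries 11 to 18 of this list were called, without Con-D7 5 and without OE-D7 0.

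Targets of YAP and TEAD were higher in 12 of 17 tested of 18 listed and lower in 0 (median 1.86). *Cyr61*, a secreted matrix protein and classical YAP target, was at 10.1, 7.93 and 93.81 FPKM in Con and at 8.17, 9.58 and 146.49 FPKM in OE (3.72 ± 0.21, adjusted p = 0.00222 from edgeR). *Ctgf*, of the same family, rose from at most 11.35 FPKM to 57.36 and 79.98, and *Ankrd1*, a nuclear and sarcomeric repeat protein, from at most 0.13 FPKM to 7.35 and 12.44. *Tgfb2*, a growth factor, rose by 5.63 (log2). *Amotl1*, *Amotl2* and *Lats2*, which are YAP targets and restrain it, rose by 1.49, 1.91 and 1.69. With any 1 of the 4 other libraries left out 8 to 14 were called, without Con-D7 2 and without OE-D7 0.

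Promoter windows from RefSeq (GRCm38.p6, 250 bases before to 50 bases after a transcript start) were searched for short motifs of the factors named above, since these groups moved together. The CArG box, the site of SRF, was searched by its usual pattern on both strands. It was found in 8 of the 24 tested genes of the actin list that had a window, 5 of them among the 14 called. Over all genes tested with a window it was found in 173 of 10978 (1.576%). GGAATG, the core letters of the TEAD site, was found on either strand in 10 of 13 tested genes of the YAP list with a window. Of these, 7 were among the 10 called and 3 among the 3 not called. The share over all genes tested with a window was 14.556%. TTCNNNGAA, the palindromic site of STAT factors, was found in 2 of 14 tested genes of the LIF-STAT3 list, of which *Socs3* was called. The share over all genes tested with a window was 7.97%. A gene counts once if any of its windows holds the motif. The lists were drawn up in part from known targets of these factors. A share above that of all genes tested is therefore built in and says nothing about D7. A promoter of *Acta1* held both a CArG box and a GGAATG, which do not overlap. A match is a description of the letters and not evidence of binding. The windows of 4 genes are shown 5′ to 3′ on the gene's strand, with the CArG box (*Acta1*, *Cnn2*), GGAATG (*Ankrd1*) or the STAT site (*Socs3*) in capitals. They were picked from called genes whose window holds the motif and are not the largest changes of each group. *Acta2*, with a larger change than *Cnn2*, had a GGAATG and no CArG box in its promoter window.
Acta1, chr8:123894726-123895025, minus strand: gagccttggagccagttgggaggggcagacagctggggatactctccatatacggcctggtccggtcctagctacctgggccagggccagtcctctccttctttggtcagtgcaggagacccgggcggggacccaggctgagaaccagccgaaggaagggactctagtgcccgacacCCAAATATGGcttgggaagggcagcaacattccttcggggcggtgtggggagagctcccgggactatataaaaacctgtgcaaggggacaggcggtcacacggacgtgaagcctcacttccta
Cnn2, chr10:79988350-79988649, plus strand: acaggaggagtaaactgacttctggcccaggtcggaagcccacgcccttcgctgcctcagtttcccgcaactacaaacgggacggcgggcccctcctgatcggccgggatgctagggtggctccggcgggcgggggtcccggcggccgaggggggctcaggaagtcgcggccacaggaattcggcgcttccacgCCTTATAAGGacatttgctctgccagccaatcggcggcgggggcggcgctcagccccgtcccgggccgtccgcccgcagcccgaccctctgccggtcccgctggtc
Ankrd1, chr19:36119795-36120094, minus strand: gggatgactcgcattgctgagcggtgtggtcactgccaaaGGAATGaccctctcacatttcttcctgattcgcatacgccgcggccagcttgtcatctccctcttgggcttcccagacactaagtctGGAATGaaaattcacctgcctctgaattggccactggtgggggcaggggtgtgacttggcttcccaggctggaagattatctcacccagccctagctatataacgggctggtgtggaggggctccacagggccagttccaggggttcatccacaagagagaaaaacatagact
Socs3, chr11:117969317-117969616, minus strand: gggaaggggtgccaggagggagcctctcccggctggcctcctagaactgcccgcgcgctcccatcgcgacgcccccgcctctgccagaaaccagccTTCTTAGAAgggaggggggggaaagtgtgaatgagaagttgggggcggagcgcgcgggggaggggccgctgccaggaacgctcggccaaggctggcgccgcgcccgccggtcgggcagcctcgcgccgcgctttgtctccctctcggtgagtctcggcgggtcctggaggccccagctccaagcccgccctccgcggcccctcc

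Collagens and other genes of the fibroblast list rose, while *Dcn* and *Lum*, defining genes of fibroblasts, stayed near 0. Of 16 tested of 20 listed, 10 were higher and 0 lower (median 2.26). *Col1a1*, the main chain of type I collagen, was at 0.92, 1.81 and 37.98 FPKM in Con and at 0.8, 1.38 and 129.05 FPKM in OE (log2 fold change 5.95 ± 0.56, adjusted p = 0.00612 from edgeR). *Col3a1* rose from at most 0.14 FPKM to 3.12 and 7.42, and *Postn*, a matrix protein of fibroblasts, from at most 0.06 FPKM to 2.12 and 6.49. *Dcn* and *Lum*, small proteoglycans of connective tissue, had at most 7 and 4 estimated reads in any library. *Thy1*, a surface marker of fibroblasts that ESCs also carry, was at 30.84, 52.99 and 22.95 FPKM in Con and at 36.88, 48.97 and 20.97 FPKM in OE, lowest in D7, with an adjusted p of 0.0593 (0.000439 with the block). Leaving out any 1 of the 4 other libraries, 7 to 13 of the list were called, without Con-D7 1 and without OE-D7 0.

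Among 37 genes of extracellular matrix and adhesion, 14 were higher and 2 lower (26 and 6 under the block). *Thbs1*, thrombospondin, was at 0.49, 0.52 and 30.48 FPKM in Con and at 0.44, 0.51 and 51.74 FPKM in OE (6.34 ± 0.22, adjusted p = 0.00205 from edgeR). *Cd44*, the hyaluronan receptor, *Anxa1*, a calcium-dependent membrane binder, and *Serpinh1*, the collagen chaperone, rose by 4.54, 3.61 and 2.80 (log2). *Lama1*, a laminin chain, and *Timp1*, an inhibitor of matrix proteases, fell by 1.5 and 1.27. Of 17 primitive endoderm genes tested of 23 listed 7 were higher and 1, again *Lama1*, lower. *Col4a1*, *Col4a2* and *Lamb1*, which build basement membrane in many cell types, and *Dab2* and *Lrp2*, of endocytosis, are among the 7. The lineage factor *Gata4* rose only from 0.47 to 0.87 FPKM in the others to 1.74 and 2.18, and *Gata6* and *Sox17* were too low to be tested, at up to 0.82 and 0.29 FPKM. Among 21 junction genes tested, 8 were higher and 0 lower (15 and 1 under the block), with epithelial members (*Cldn4*, *Grhl2*, *Dsc2*) and mesenchymal ones (*Cdh2*, *Zeb2*) both among the 8. Without any 1 of the 4 other libraries, the called genes numbered 10 to 16 for matrix, 4 to 8 for primitive endoderm and 3 to 9 for junctions.

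Naive pluripotency genes were lower. All 23 listed genes were tested, 7 were lower and 0 higher (17 and 1 under the block), the median log2 fold change was -0.72, and in 16 of the 23 the D7 library lay below both others in both genotypes. *Gbx2*, a LIF-responsive transcription factor, was at 15.47, 8.99 and 0.93 FPKM in Con and at 13.69, 12.53 and 0.92 FPKM in OE (log2 fold change -3.79 ± 0.35, adjusted p = 0.00605 from edgeR), the largest fall in the list. *Esrrb*, a nuclear receptor of the naive network, was at 179.75, 190.51 and 83.81 FPKM in Con and at 184.01, 163.99 and 69.94 FPKM in OE. *Klf4*, *Klf5*, *Tfcp2l1*, *Tet2* and *Tcl1* also fell, by 1.20, 1.21, 0.96, 1.30 and 0.71 on the log2 scale. *Zfp42*, at 237.56 FPKM in Con-D7 and 236.64 in OE-D7 against 312.86 to 442.11, missed the threshold (adjusted p = 0.07 from edgeR, 0.000249 under the block). With any 1 of the 4 other libraries left out 5 to 14 genes of the list were called, the highest number without Con-2, and 0 without either D7 library.

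The core factors moved by less. *Pou5f1* (Oct4) was at 682.98, 622.54 and 383.78 FPKM in Con and at 648.37, 575.03 and 311.64 FPKM in OE, lower in D7 than in every other library (log2 fold change -0.88 ± 0.13, adjusted p = 0.0196 from edgeR). A chromatin factor of ESCs, *Utf1*, fell by 1.40. *Sox2* was at 215.94 FPKM in Con-D7 and 172.15 in OE-D7 against 247.2 to 266.87 in the others, and missed the threshold (adjusted p = 0.073 from edgeR, 0.00544 under the block). *Nanog* was at 403.79, 261.23 and 320.14 FPKM in Con and at 470.91, 318.63 and 327.31 FPKM in OE, each D7 value lying between the other 2 of its genotype (adjusted p = 0.688 from edgeR, 0.143 under the block). Of the 10 core genes 2 were lower and 0 higher (8 lower under the block), and with a library left out 0 (without OE-2) to 5 (without Con-2) were lower.

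LIF-STAT3 genes fell in 5 of 15 tested, with 0 higher (9 lower and 5 higher under the block). In 7 of the 15 the D7 library lay below both others in both genotypes, and in 5 it lay above both. *Socs3*, the feedback inhibitor that STAT3 induces, was at 51.92, 134.69 and 13.0 FPKM in Con and at 67.55, 111.94 and 20.19 FPKM in OE (log2 fold change -2.47, adjusted p = 0.0316 from edgeR). *Bcl3*, also induced by STAT3, was at 28.39, 24.54 and 4.97 FPKM in Con and at 24.43, 28.61 and 5.15 FPKM in OE (-2.40 ± 0.17, adjusted p = 0.00385). Both D7 values lie far below the other 4 for each gene, although *Socs3* also differed between libraries 1 and 2. *Lifr*, a subunit of the LIF receptor, and *Stat3* itself fell by 0.88 and 0.60. Feedback genes of FGF-ERK signalling were lower in 4 of 16 and higher in 1, *Dusp5* (6 and 6 under the block). This list was mixed, with the D7 library below both others in both genotypes in 5 genes and above both in 6. Its median change was 0.28 in Con and -0.16 in OE. *Spry4* was at 60.96, 54.2 and 12.81 FPKM in Con and at 60.14, 80.08 and 6.87 FPKM in OE, and *Etv4* at 73.58, 92.93 and 23.44 and at 68.61, 84.21 and 21.75 FPKM (-1.83 ± 0.13, adjusted p = 0.0041). *Spry2*, counted in both lists, and *Spred1* fell by 1.73 and 0.92. Leaving out any 1 of the 4 other libraries, 2 to 6 of the LIF-STAT3 genes (2 without OE-2) and 3 to 6 of the FGF-ERK genes were called.

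Of 16 formative and primed epiblast genes 4 were higher and 1 lower (9 and 3 under the block). *Fgf5*, the usual marker of the primed epiblast, was at 0.05, 0 and 3.1 FPKM in Con and at 0.11, 0 and 0.83 FPKM in OE, and reached the level for testing only through D7, so its call is no more than a description. *Cd24a*, *Dnmt3a* and *Sox3* rose by 1.34, 0.69 and 1.72. *Otx2*, a factor of the formative epiblast, was at 15.6, 12.85 and 40.32 FPKM in Con and at 15.37, 15.47 and 18.65 FPKM in OE (adjusted p = 0.099, and 0.014 with the block). *Dnmt3b* was at 47.34 to 66.84 FPKM in all 6 libraries and did not pass. Of 17 mesendoderm and early mesoderm genes tested of 27 listed 4 were higher, *Hand1*, *Msx1*, *Msx2* and *Gata2*, and 0 lower (13 and 0 under the block). *T* (brachyury) was at 1.83 FPKM in Con-D7 and 0.64 in OE-D7 against at most 0.31 (adjusted p = 0.0583, and 0.0041 with the block). Of 4 neural progenitor genes tested *Nes* was called higher and 0 lower (1 and 1 under the block), with a median log2 fold change of -0.02. Without passing, *Tubb3* (-1.35) and *Map2* (-0.52) were lower and *Sox21* (0.48) was higher. *Sox1* and *Pax6* were too low to be tested. Without any 1 of the 4 other libraries the called genes numbered 1 to 5 for primed epiblast (1 without OE-2) and 3 to 7 for mesendoderm.

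Genes of signalling and growth followed. Of 16 BMP and TGF-beta targets 6 were higher and 0 lower (10 and 1 under the block), among them the inhibitors of differentiation *Id2* (1.1), *Id3* (0.94) and *Id4* (1.18). Of 15 Wnt targets *Cdx2* and *Dkk1* were higher (7 under the block). Imprinted genes were higher in 6 of 24 tested of 35 listed and lower in 0 (15 and 1 under the block). *Igf2*, the fetal growth factor, was at 1.49, 1.36 and 42.79 FPKM in Con and at 1.13, 0.97 and 91.43 FPKM in OE (5.79 ± 0.37, adjusted p = 0.00358 from edgeR). *Dlk1*, a Notch-like ligand, was at 1.67, 0.76 and 25.03 FPKM in Con and at 2.75, 2.85 and 79.43 FPKM in OE. *Peg3*, *Peg10*, *Usp29* and *Slc38a4*, all expressed from the paternal allele like *Igf2* and *Dlk1*, rose by 2.89, 2.02, 1.91 and 0.84. The secreted factors *Csf1*, *Ccl2* and *Ccl7* had some of the highest fold changes. *Csf1* went from at most 0.31 FPKM to 17.77 and 35.45 and *Ccl2* from at most 0.14 FPKM to 9.26 and 19.59. At least *Csf1* and *Ccl2* reached the level for testing only through D7, so their calls are no more than a description. With any 1 of the 4 other libraries left out 2 to 8 BMP and TGF-beta targets and 4 to 9 imprinted genes were called.

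Genes of the 2-cell embryo were higher in 24 of 41 tested of 47 listed and lower in 1, *Mylpf*, with a median log2 fold change of 1.5 and medians of 1.51 in Con and 1.51 in OE. *Zscan4c* was at 14.38, 19.34 and 63.21 FPKM in Con and at 18.18, 33.19 and 94.76 FPKM in OE (log2 fold change 1.90 ± 0.23, adjusted p = 0.011 from edgeR). The neighbouring copy *Zscan4d* was at 13.82, 17.18 and 50.11 and at 18.06, 30.84 and 68.19 FPKM, and *Tcstv3*, of another family of this state, at 4.52, 7.14 and 20.02 and at 9.27, 13.8 and 31.92 FPKM. Both D7 values lie above the other 4 for each of these genes, and replicate 2 above replicate 1. The genes *Usp17lb* and *Usp17le*, of a deubiquitinase family, and *Gm2016* and *Gm2022* rose by 2.14, 1.88, 1.85 and 2.01. These families hold near-identical copies, so reads may be split between members, and the calls are not independent. Leaving out any 1 of the 4 other libraries, 15 to 27 genes were called (15 without OE-1), and 0 without either D7 library.

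**Figure D3:**
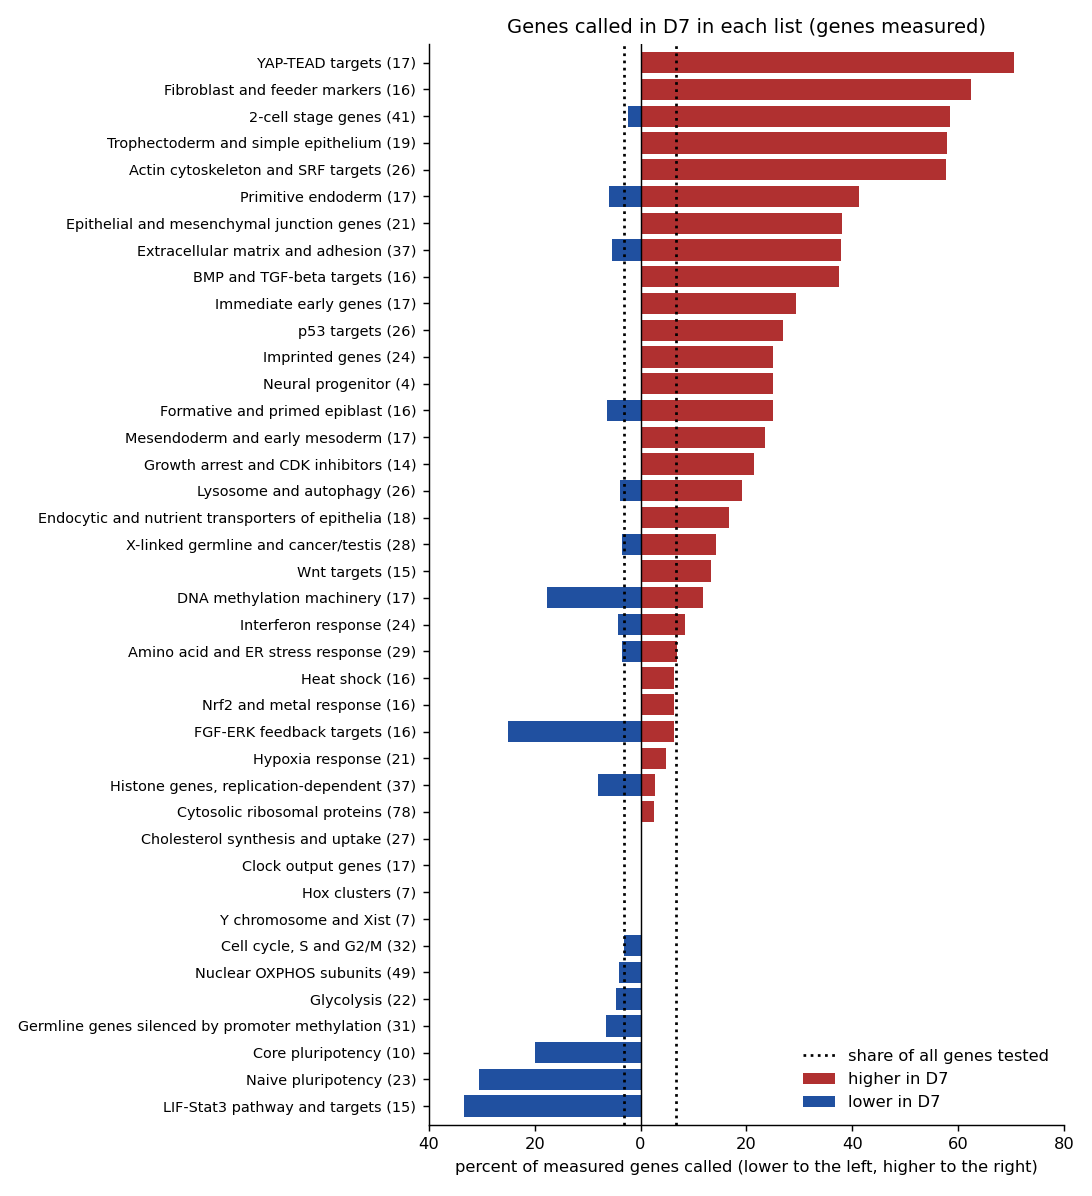
Percent of the measured genes of each of 40 lists called higher (right) or lower (left) in D7 by edgeR, with the number measured in brackets and the shares of all genes tested (6.77% higher, 3.06% lower) as dotted lines. YAP-TEAD targets have the longest bar to the right (12 of 17) and LIF-STAT3 genes the longest to the left (5 of 15).

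Among genes of DNA methylation *Tet1* and *Tet2*, which oxidize methylcytosine, and *Dnmt3l*, a cofactor of the de novo methyltransferases, fell by 1.40, 1.30 and 1.20, while *Dnmt3a* and *Mbd2* rose by 0.69 and 0.72. Of the 17 genes of this list 3 were lower and 2 higher, and 9 and 5 under the block. Of 31 germline genes silenced by promoter methylation 0 were higher (2 before adjustment at p under 0.05, 2 by DESeq2) and *Piwil2* and *Hsf2bp* were lower, against 10 higher and 10 lower under the block. *Stra8*, which starts meiosis, was at 1.96, 10.76 and 29.18 FPKM in Con and at 2.84, 12.24 and 33.81 FPKM in OE (adjusted p = 0.11 from edgeR, and 8.38e-06 with the block), with the difference between libraries 1 and 2 nearly as large as that to D7. On the X chromosome, of 39 listed genes of germline and cancer/testis type 28 were tested, and of these 4 were higher and 1 lower (10 and 5 under the block). *Rhox6*, a homeobox gene of a cluster expressed in placenta and gonad, was at 3.32, 3.25 and 23.18 FPKM in Con and at 4.58, 4.23 and 99.33 FPKM in OE, and *Rhox9* of the same cluster at 3.84, 2.24 and 21.37 and at 3.52, 2.69 and 59.23 FPKM. *Rhox4b* had 0 estimated reads in all 4 others and was at least 3.99-fold higher in Con-D7 and at least 22.5-fold higher in OE-D7, against a floor of 3 counts per library. *Xlr4a* was lower, at 3.59, 4.67 and 1.64 FPKM in Con and at 10.04, 12.41 and 5.45 FPKM in OE.

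Lists of stress, cycle and housekeeping genes follow. Of 26 p53 targets 7 were higher and 0 lower (18 and 2 under the block), with a median log2 fold change of 0.61, from *Ei24* (0.56) to *Plk2* (1.83), with *Mdm2*, the ubiquitin ligase of p53, at 46.3, 43.73 and 69.03 FPKM in Con and at 42.47, 46.82 and 95.53 FPKM in OE. *Cdkn1a*, the CDK inhibitor p21, was at 85.29 FPKM in Con-D7 and 111.84 in OE-D7 against 45.05 to 69.28 (adjusted p = 0.0613, and 0.000775 with the block). Without any 1 of the 4 other libraries 1 to 12 of the p53 targets were called (1 without OE-2). Of 17 immediate early genes tested 5 were higher (11 under the block, 2 without OE-2 and 8 without Con-2), among them *Jun* and *Klf6*, and *Fos* was at 1.1, 6.82 and 13.91 FPKM in Con and at 1.59, 7.5 and 21.38 FPKM in OE without passing (adjusted p = 0.143, and 2.06e-05 with the block). *Cdkn2b*, *Gas1* and *Gas6*, of growth arrest, rose by 2.34, 2.21 and 1.56. Of 29 amino acid and ER stress genes 2 were higher, near the 6.77% of all genes, and 1, *Shmt2*, was lower (10 and 10 under the block). The median log2 fold change of this list was -0.10. The 2 were the ER chaperones *Hspa5* and *Hsp90b1*, which rose by 1.14 and 0.63. *Atf4* was at 79.38 to 123.08 FPKM over all libraries with overlapping groups. Of 37 replication-dependent histone genes *Hist1h2bq* was higher and 3 lower, among them *Hist2h2aa2*, with 8, 14, 14 and 14 estimated reads in the other libraries and 0 in both D7 libraries, of 24 interferon genes *Gbp2* and *Psmb8* were higher and *Ddx58* lower, and the hypoxia, heat shock and Nrf2 lists had 1 gene higher each (*Mxi1*, *Hspa1b* and *Gstm2*). At 2 of 24, 1 of 21, 1 of 16 and 1 of 16, the interferon, hypoxia, heat shock and Nrf2 lists were near or below the 6.77% of all genes. Under the block 10 hypoxia, 7 heat shock and 10 interferon genes were higher. Of 7 *Hox* genes tested edgeR called 0 (0 also before adjustment, 2 under the block). In the lysosome list 5 of 26 were higher and 1 lower (17 and 3 under the block), with 0 higher without OE-2, 1 without OE-1 and 11 without Con-2. Nuclear genes of oxidative phosphorylation were lower in 2 of 49 (*Ndufs7* and *Ndufb10*), near the 3.06% of all genes, and higher in 0 (22 and 1 under the block). In 36 of the 49 the D7 library lay below both others in both genotypes, against 26.7% of all genes, at a median log2 fold change of -0.19. Of 32 S and G2/M genes *Mcm4* was lower (18 under the block) and 0 were higher, and of 22 glycolysis genes *Hk2* was lower (6 under the block). Both lists were near the 3.06% of all genes called lower. Of 78 cytosolic ribosomal protein genes *Rpl23* and *Rpl23a* were higher (18 under the block), a share below the 6.77% of all genes. Of 27 cholesterol genes and 17 clock genes edgeR called 0 (before adjustment, at p under 0.05, 3 cholesterol genes were lower, and 1 clock gene was higher and 2 lower). Under the block 10 cholesterol genes were lower and 3 higher, and 4 clock genes lower and 5 higher. *Ldha* and *Hmgcs1* missed the threshold (adjusted p = 0.473 and 0.305 from edgeR, 0.0718 and 0.00588 under the block).

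The D7 libraries also held low levels of transcripts that adult organs make in bulk. *Mup7*, a major urinary protein of liver, had 0 estimated reads in all 4 others, 194 in Con-D7 and 202 in OE-D7, at least 64.5-fold and at least 68.9-fold higher against a floor of 3 counts per library. *Alb*, serum albumin, was at 0.24, 0.27 and 23.13 FPKM in Con and at 0.22, 0.14 and 31.84 FPKM in OE (log2 fold change 6.95). *Alb* reached the level for testing only through D7, so its call is no more than a description. *Kap*, an androgen-regulated protein of the kidney, had 0 reads in the others and 83 and 143 in Con-D7 and OE-D7. *Scgb1a1*, the secretoglobin of airway club cells, had 0 and then 86 and 68. Some markers of liver, kidney and lung were thus present together in both Con-D7 and OE-D7.

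Over a list of 30 liver transcripts, chosen after the values were seen, 9 had 0 reads in all 4 others, 2 were over 1 FPKM in any of them and 19 were over 1 FPKM in both D7 libraries. Most could reach the level for testing only through D7, so their calls are not counted. The summed level was 26.22 to 41.1 FPKM in the others (mostly *Apoc1*, at up to 36.34 FPKM), 139.91 in Con-D7 and 191.41 in OE-D7. Over 9 kidney transcripts the sum was 5.7 to 8.55 FPKM against 14.8 and 22.19, and 3 of them were over 1 FPKM in both D7 libraries. *Napsa*, one of these 3, made up most of the kidney sum in the others and ran the other way. It was at 8.32, 5.86 and 3.53 FPKM in Con and at 8.25, 4.8 and 2.54 FPKM in OE. Over 10 lung transcripts, 9 of which have values, the sum was 1.45 to 3.1 FPKM against 17.15 and 14.33. Of the 9, 3 were over 1 FPKM in both D7 libraries. In this list *Sftpd* and *Scgb3a1* were lowest in the D7 library of each genotype, at up to 0.22 and 0.38 FPKM against 0.43 to 0.97 and 0.36 to 1.6 in the others. A list of 10 blood and muscle transcripts summed to 4.46 to 6.68 FPKM in the others, 32.53 in Con-D7 and 44.52 in OE-D7, mostly *Acta1*, described above, and *Tnnt3*, a troponin, which was at most at 0.75 FPKM in the others and at 5.53 and 9.87 in D7. Its 4 hemoglobin genes had 0 to 27 estimated reads in the others and 0 to 29 in D7, the highest being *Hba-a2*. The major urinary protein and *Serpina1* families hold near-identical copies that may share reads. The part of such transcripts in the other D7 changes was not tested.

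**Figure D4:**
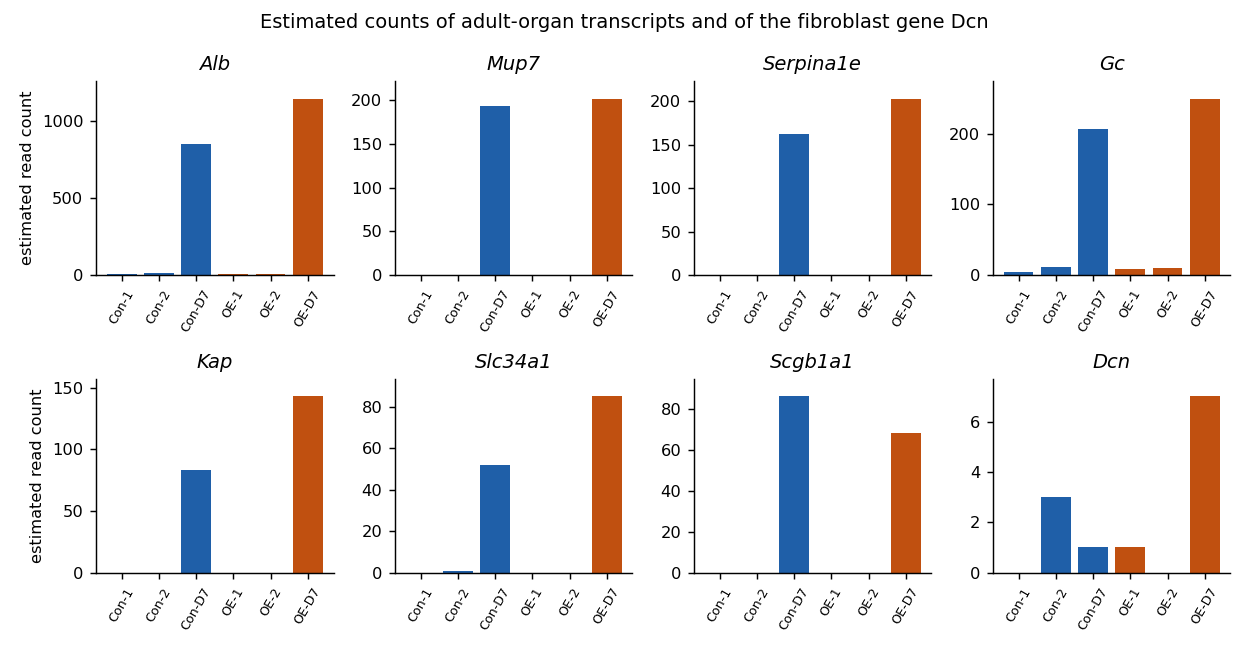
Estimated read counts (vertical axes, linear from 0) in each library of 4 liver transcripts (*Alb*, *Mup7*, *Serpina1e*, *Gc*), 2 kidney transcripts (*Kap*, *Slc34a1*), the lung transcript *Scgb1a1* and the fibroblast gene *Dcn*. The first 7 are high only in Con-D7 and OE-D7 of the 6 libraries, while *Dcn* stays at 7 reads or below.

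Where Con and OE moved apart, *Dppa3* itself came first. It lies on chromosome 6 (122626424 to 122630271, GRCm38.p6) and was at 6.09, 3.89 and 26.22 FPKM in Con and at 278.79, 278.82 and 130.96 FPKM in OE. OE-D7 was thus above every Con library, as its label says, while Con-D7 was above and OE-D7 below both others of its genotype (change of 2.38 in Con and -1.09 in OE). In edgeR's test of the difference in the D7 change 0 genes passed. At p under 0.05 before adjustment 47 of 13809 genes moved more toward OE and 22 toward Con, fewer than that threshold would give if no gene differed. The genes named here are therefore a description only. DESeq2 called 2, *Dppa3* (smaller in OE) and *Gm14308* (larger), and edgeR called 11 without Con-1 and 9 without Con-2. *Dppa3* had the smallest p of the edgeR test among the genes named by rule (difference -3.45, standard error 0.48, adjusted p = 1). The others were *Emp1* (1.29), *Tgfbi* (1.60), *Phlda2* (1.22), *Rhox6* (1.71) and *Tagln* (1.37), all toward OE.

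*Emp1*, an epithelial membrane protein, was at 13.45, 15.02 and 13.93 FPKM in Con and at 15.36, 16.74 and 37.69 FPKM in OE. *Tgfbi*, a TGF-beta induced matrix protein, was at 6.26, 6.73 and 7.19 and at 6.7, 5.92 and 20.92 FPKM. *Phlda2*, an imprinted gene that limits placental growth, was at 52.86, 61.84 and 33.58 and at 50.06, 49.48 and 68.1 FPKM. For *Emp1* and *Phlda2* Con-D7 thus lay within or below the other Con libraries and OE-D7 above the other OE libraries, and neither passed in D7 over both genotypes. Of the genes with the D7 library outside both others in each genotype, 2 were at least 2-fold higher in OE and at least 2-fold lower in Con, and 5 the reverse.

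Among called genes averaging 3 FPKM or more, the lowest fold changes beside those described belonged to *Inhbb* (a subunit of activin B, log2 fold change -3.74), *Ntn1* (netrin, -2.81), *Fcgr2b* (an Fc receptor, -2.67), *Soga3* (-2.61), *Stmn3* (a microtubule destabilizer, -2.54), *Naprt* (NAD synthesis from nicotinate, -2.51), *Islr2* (-2.45) and *Adgrd1* (an adhesion receptor, -2.43). *Inhbb* was at 10.26, 5.71 and 0.59 FPKM in Con and at 10.77, 6.51 and 0.67 FPKM in OE, and *Ntn1* at 16.99, 11.58 and 2.42 and at 14.77, 9.37 and 1.46 FPKM. In both genes the 2 D7 values are the lowest of the 6. Genes higher in D7 outnumbered lower ones more strongly the larger the change, with 697 higher and 224 lower among the calls of at least 2-fold and 197 and 5 among those of at least 8-fold. The filter on level bears on this, since 409 genes, of which 209 were called higher, had a mean FPKM under 0.5 in the 4 others and were tested through their D7 values, against 214 with a mean under 0.5 in D7, of which 13 were called lower.

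Change also varied slightly with transcript length. Over 5 equal classes of genes at a mean FPKM of at least 1, the median change went from -0.13 in Con and -0.16 in OE in the class of shortest transcripts to 0.09 and 0.08 in the longest. By chromosome the medians lay between -0.09 and 0.08 in Con and between -0.09 and 0.08 in OE over the 19 autosomes and X, a range within that over the length classes. The 7 genes of the Y chromosome had medians of 0.12 in Con and -0.34 in OE.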

How the data were processed

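Messenger RNA was measured in 6 mouse ESC libraries, grouped by the labels. The authors sequenced on BGISEQ-500 and mapped to mm10 (Bowtie2). RSEM's estimated counts were deposited without normalization. HISAT and GRCm38.p6 appear in the submitters' notes on processing instead. Versions are not given in the sources used here. The authors also deposited FPKM, scaled by transcript length and depth. Count columns of the D7 libraries are headed as averages but hold fractional values like the others. Of 19489 genes 19340 matched RefSeq by gene number, and 26 date-like symbols were put back to gene names. Mapping and counting were taken as deposited, and reads of near-identical genes may be split.

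Estimated counts were rounded and genes averaging 0.5 FPKM or more in the 6 libraries were kept. edgeR 4.0.16 (R 4.3.3, TMM factors 0.944 to 1.05, quasi-likelihood F test, Benjamini-Hochberg over 13809 genes, adjusted p under 0.05) was fitted with genotype as a term, and with 4 groups for each genotype and their difference. Errors given as ± are standard errors. An exact permutation test of 2 against 4 libraries allows 15 splits and cannot give a two-sided p below 0.133, so none is given. Within-genotype changes are differences of log2 CPM with a prior count of 2. Members and lists were chosen with earlier results of these data known, so they are described by counts and medians. Named genes were the 12 highest and 12 lowest fold changes among calls at a mean FPKM of at least 3 on the same side in both genotypes, up to 4 smallest p-values in each list, the 6 smallest for the difference, and a fixed set of lineage and pathway genes, with further members where a list is described. *Apoc1*, *Hba-a2*, *Serpina1e*, *Gc*, *Slc34a1*, *Thy1*, *Dcn*, *Napsa*, *Sftpd*, *Scgb3a1*, *Tnnt3* and *Gm14308* were named after their values were seen.

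As a pairing check, deviations from the genotype mean of libraries with the same number correlated across 12565 genes at 0.88, 0.76 and 0.89, and from -0.78 to -0.03 between different numbers. The mean is over all libraries of a genotype, so these values depend on each other. Negative values between different numbers are in part built in. The pairing comes from the numbers in the titles, and no source says what a number shares. The biological coefficient of variation was 0.24, and 0.0985 with the block. In simulated data of 13809 genes for the D7 comparison, the test recovered 11.9% of genes changed 1.5-fold, 49.3% of those changed 2-fold and 95.5% of those changed 4-fold, with 3 false calls, and for the difference between genotypes 0%, 2.99% and 39.4%, with 2 false calls. The changed genes were drawn from well-counted ones only. Each simulated library was drawn independently, with no effect shared by number, so the false calls do not gauge those in libraries that pair as these do. Alternatives were DESeq2 1.42.0, limma 3.58.1 on log2 of FPKM plus 0.5, other normalization, filters and models, and leaving out libraries.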

Additional observations from a re-analysis of the deposited data

How the results depend on the processing

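For genes higher and lower in D7 (935 and 422), RLE size factors, limma, no FPKM filter and a mean FPKM of at least 1 kept both counts within 1.5 times. DESeq2 gave 1499 and 995, no genotype term 1451 and 860, the replicate block 3531 and 3256, and a 2-fold minimum 224 lower. Without the block, leaving out 1 library gave 0 to 1574 higher and 0 to 886 lower, with the ends at OE-D7 and Con-2. The block called all genes called without it. For the difference between genotypes (0 genes), DESeq2 called 2, and leaving out 1 of the other libraries, an alternative chosen after seeing the data, gave 0 to 11. Genes at least 2-fold higher and lower in both genotypes (981 and 287) became 532 and 140 on log2(FPKM + 1), 184 lower on log2(FPKM + 0.5), and 1724 and 899 at 1.5-fold, and ranged over 746 to 1179 and 264 to 359 with 1 other library left out. Those ranges and the counts per list with a library left out were also chosen after seeing the data.

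Of 131 called genes among those the text may name, 125 kept their call with DESeq2, 128 with limma, 131 with RLE and with the block, 123 without Con-1, 131 without Con-2, 89 without OE-1, 78 without OE-2, 16 without Con-D7 and 0 without OE-D7, and none turned its direction. Of 53 not called, 42 passed with the block and 27 with DESeq2. *Dppa3*, not called, turned from 0.82 to -0.846 without a genotype term and to -1.07 without Con-D7, *Emp1* to -0.0369 without OE-D7, and *Phlda2* to 0.464 without Con-D7. With libraries left out in turn these 3 ranged from -1.07 to 2.38, from -0.0369 to 1.25 and from -0.755 to 0.464. With 1 library per D7 group, a library left out leaves a lone sample that is assumed to vary like the others.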
